A study of Homo sapiens with 12 samples.

Results

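Chromatin remodellers use ATP to slide, evict or exchange nucleosomes, and 36 genes that encode their subunits were described in HEK293T cells, of 24401 gene features in all. They were chosen by name: 21 encode subunits of BAF (the mammalian SWI/SNF complex), 3 encode subunits of its polybromo form PBAF, and 2 are ISWI, 7 CHD and 3 INO80-family ATPases. All 36 had reads. Of the 36, 35 passed the low-count filter and were tested among 14616 genes. The exception was ACTL6B, a neuronal subunit.

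HEK293T cells derive from human embryonic kidney and express the large T antigen of SV40. Polyadenylated RNA was sequenced from 12 libraries in 4 groups of 3, and every group received plasmids for guide RNAs to 4 sites at IL1RN, delivered by lipid transfection. The groups differed in the second plasmid. It encoded dCas9-p300 core (nuclease-dead Cas9 fused to the catalytic core of the acetyltransferase p300), dCas9-VP64 (fused to a viral activation domain), dCas9-p300 D1399Y (the p300 core without acetyltransferase activity) or dCas9 alone. The labels describe transfection as efficient but incomplete, so untransfected cells can be part of each library, and fewer responding cells cannot be told apart from less RNA per cell.

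BAF complexes are built around one of a pair of alternative ATPases, SMARCA4 or SMARCA2, which sit on a shared core of SMARCC, SMARCD, SMARCB1 and SMARCE1 subunits. Most positions can be filled by paralogs, and the choice of paralog changes during development: neural progenitors use PHF10, DPF2, ACTL6A and SS18, whereas neurons use DPF1 or DPF3, ACTL6B and SS18L1. The DPF proteins carry paired PHD fingers that bind acetylated histone H3 tails, and DPF3 is known for its role in heart and skeletal muscle. ISWI remodellers space nucleosomes, CHD remodellers carry chromodomains, and the INO80 family includes the enzymes that exchange histone H2A.Z.

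The results turn on DPF3 and its 2 paralogs, so their upstream windows are shown. Each is the 250 bases before an annotated start in RefSeq (GRCh38.p14), given on the strand of the gene, 5′ to 3′. Capitals mark CCAAT boxes (CCAAT or ATTGG) and GC boxes (GGGCGG or CCGCCC), searched on both strands.
DPF3, chr14:72894102-72894351, minus strand: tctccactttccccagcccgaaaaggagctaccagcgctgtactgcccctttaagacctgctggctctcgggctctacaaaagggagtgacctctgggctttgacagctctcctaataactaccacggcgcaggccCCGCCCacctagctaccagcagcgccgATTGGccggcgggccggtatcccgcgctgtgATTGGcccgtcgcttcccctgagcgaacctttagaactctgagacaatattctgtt
DPF1, chr19:38229696-38229945, minus strand: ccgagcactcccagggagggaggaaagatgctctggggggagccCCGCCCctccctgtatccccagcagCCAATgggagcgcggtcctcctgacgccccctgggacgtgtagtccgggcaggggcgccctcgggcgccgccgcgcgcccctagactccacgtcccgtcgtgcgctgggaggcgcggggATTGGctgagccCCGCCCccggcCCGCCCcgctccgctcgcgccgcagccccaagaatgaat
DPF2, chr11:65333602-65333851, plus strand: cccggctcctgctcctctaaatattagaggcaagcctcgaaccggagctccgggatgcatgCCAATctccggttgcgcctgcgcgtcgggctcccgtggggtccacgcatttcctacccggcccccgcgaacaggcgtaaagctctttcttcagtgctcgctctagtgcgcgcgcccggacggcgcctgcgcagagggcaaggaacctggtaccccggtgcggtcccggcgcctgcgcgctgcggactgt
The DPF3 window held 2 CCAAT boxes and 1 GC box, with 16 CpG dinucleotides. The DPF1 window held 2 CCAAT boxes, 3 GC boxes and 28 CpG dinucleotides, and the DPF2 window held 1 CCAAT box, 0 GC boxes and 30 CpG dinucleotides. DPF3 has a second annotated start on the same strand, whose window (chr14:72892650-72892899) held 19 CpG dinucleotides. By its GENCODE record, the counted DPF3 transcript starts 15 bases from the RefSeq start that the first window precedes. Over all 35116 windows of this length, 32.0% held a CCAAT box and 42.6% a GC box, and over the 47 windows of 31 matched members the shares were 31.9% and 59.6%. The TATA box letters TATAAA were in 2.13% of member windows and in 10.7% of all windows, and the cAMP response element TGACGTCA was in 0% and 1.65%. Member windows had a median of 22 CpG dinucleotides and all windows a median of 11. These matches describe letters and show nothing about binding.

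IL1RN, the gene the guides target, had 278, 455 and 339 counts in the core libraries, 95, 76 and 123 in the VP64 libraries, 24, 26 and 35 in the D1399Y libraries and 15, 28 and 25 in the dCas9 libraries. Library totals spanned 2442960 counts (dCas9 replicate 3) to 5154627 counts (core replicate 2). Replicate 3 of dCas9 stood apart. Its chi-square per degree of freedom over genes was 19.4 and 22.0 against the other 2 dCas9 libraries, while the other 10 pairs within groups lay between 2.60 and 6.71. Of the lineage genes known in HEK293 cells, 8 of 8 were detected, with summed levels of 531 to 788 CPM (counts relative to library size, scaled as edgeR does). Markers of keratinocytes, endothelium and muscle summed to at most 5.30 CPM in any library, with KRT5, KRT14, MYH7 and TNNT2 at 0. Fibroblast markers (THY1 at 0) reached at most 31.3 CPM and blood markers (CD3E and HBB at 0) at most 15.9 CPM.

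HEK293T libraries held RNA for nearly the whole set, at levels that spanned about 2 orders of magnitude per unit of length. Levels between genes are compared as CPM per kilobase of the longest matched transcript, averaged over the 12 libraries. SMARCC1, a core scaffold subunit, stood at 53.3 ± 6.40 CPM per kb (SD, n = 12), CHD4, the ATPase of the deacetylase complex NuRD, at 46.2 ± 2.77, and PBRM1, the polybromo subunit of PBAF, at 45.7 ± 8.89. SMARCA4 ranked above them at 65.5 ± 11.3 CPM per kb, but this value rests on a sum over isoforms.

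The files list isoforms apart, and SMARCA4 has 7 transcripts with nearly equal totals of 2407 to 2519 counts. The labels do not state how a read common to several isoforms was counted. If each shared read was counted once per isoform, the sum overstates such genes. Counted from its single highest transcript, SMARCA4 stood at 9.94 CPM per kb and ranked 23 of 35, and SMARCC1 ranked 1. Over 572 genes with 2 transcripts of lengths within 2%, the median chi-square per degree of freedom between the 2 counts lay between 0.395 and 0.707 in 6 bins of count per base. A random split of reads would give about 1. Double counting would give about 0 only where the 2 transcripts share every base, and more where they do not. How much sequence they share was not measured, so the counting rule was not settled. Levels and shares are from summed counts unless single transcripts are named.

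The lowest ranks do not depend on that choice, since DPF3 and ACTL6B came last either way. DPF3 stood at 1.05 ± 0.54 CPM per kb and ACTL6B at 0.616 ± 0.600, each from a single listed transcript. Their library ranges overlap. From summed counts the next genes above were BCL7C at 7.26 ± 2.19 and SS18L1 at 8.38 ± 1.24, which overlap each other but not DPF3 or ACTL6B. DPF3 had 203 reads in all 12 libraries, and ACTL6B had 41 reads with none in 2 libraries. CHD9 had no matched transcript length and has no value per kb. SMARCB1 overlaps DERL3 on the opposite strand, SMARCC2 overlaps MYL6, SMARCD3 overlaps CHPF2, PHF10 overlaps C6orf120, ACTL6A overlaps MRPL47 and BCL7C overlaps MIR762. SRCAP shares 327 exonic bases with TMEM265. The strand setting is not given, so these levels are uncertain. EP400 has the named copy EP400P1, which held 67 counts against 6106 for EP400.

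**Figure D1:**
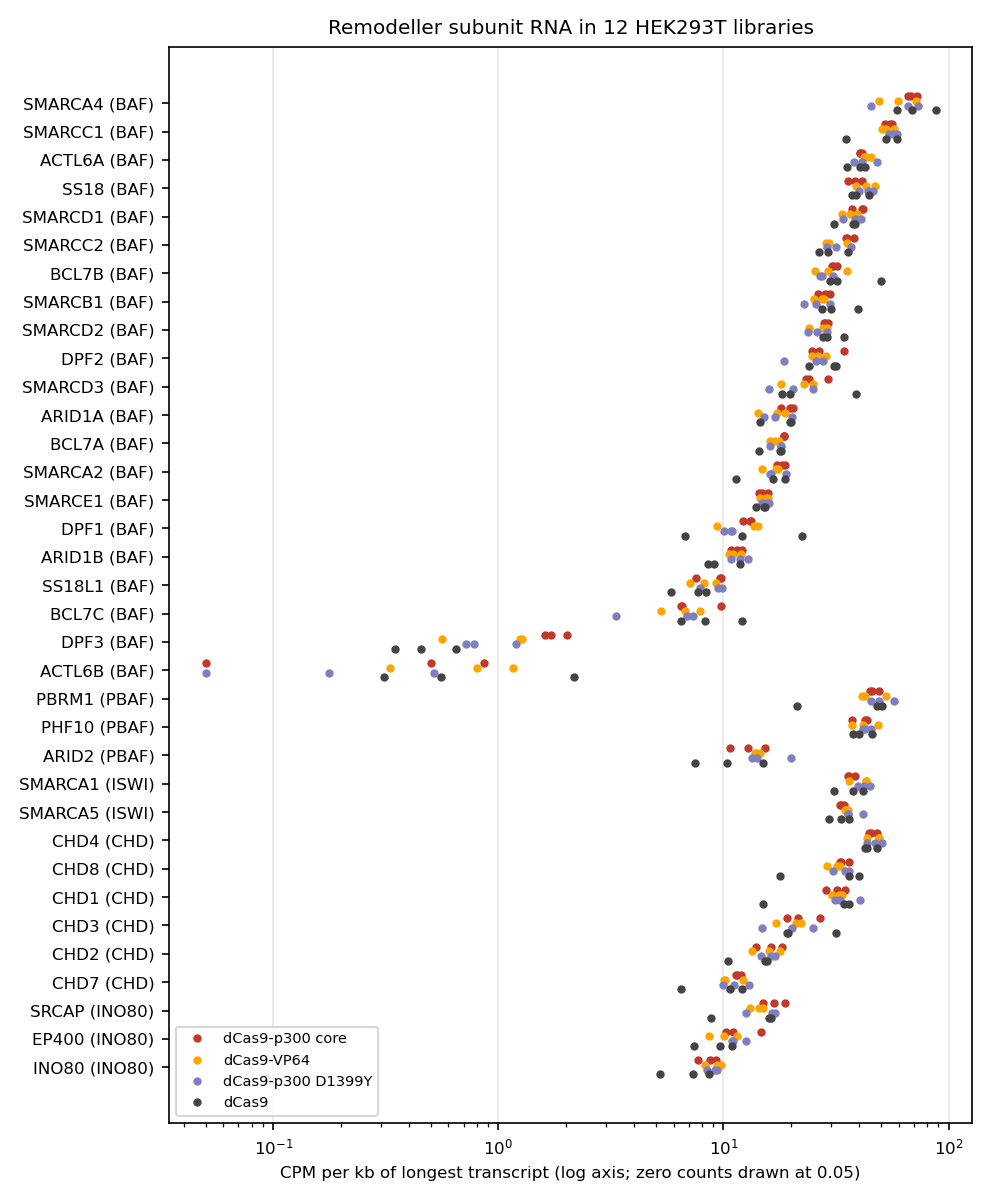
RNA level of 35 members in CPM per kb (log axis), grouped by family and ordered by mean within each. Each point is 1 library, coloured by group, and the 2 libraries without an ACTL6B read are drawn at 0.05. Most members lie between 7 and 66 CPM per kb on average, with DPF3 and ACTL6B below.

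Members varied less between libraries than the median gene did. Their median coefficient of variation over the 12 libraries was 14.6%, against 18.3% over all genes tested, while their median level was 132 CPM against 39.9 CPM, so depth differs between those sets. SMARCE1, a core subunit with a DNA-binding HMG box, was the steadiest at 4.15%, and CHD4 followed at 5.99%. DPF3 at 51.7% and ACTL6B at 97.4% varied most, and both are also the members with fewest reads.

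Paralog choice was read within each library as a share of the counts per kb of a paralog set, a measure that does not depend on library size. The progenitor-type paralog led in each of the 3 sets that have one: ACTL6A held 98.5% ± 1.40 of the ACTL6 pair (SD, n = 12), SS18 held 83.1% ± 2.13 of the SS18 pair, and DPF2 held 67.0% ± 5.88 of the DPF set. DPF1 held 30.4% ± 5.83 and DPF3 2.61% ± 1.25 of the DPF set. With PHF10 added to that set, PHF10 held 51.1% ± 5.32 and DPF2 32.7%, while single transcripts gave 39.2% for PHF10 and 48.1% for DPF2, so the leading gene changes. Counted from single transcripts, ACTL6A held 95.9%, SS18 82.2%, DPF2 79.1%, DPF1 17.8% and DPF3 3.09%, and the order within the set of DPF1, DPF2 and DPF3 was the same.

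Markers of mature neurons were present at 49.3 to 98.8 CPM in sum, of which SYT1 gave 54.3 CPM on average and RBFOX3 only 1.98 CPM. By group they summed to 87.9 to 98.8 CPM in the core libraries, 65.4 to 93.3 in the VP64 libraries, 85.0 to 97.7 in the D1399Y libraries and 49.3 to 93.5 in the dCas9 libraries. Their part in the levels of DPF1, DPF3, ACTL6B and SS18L1 was not tested.

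Among the enzymes and the core, several shares depend on how isoforms are counted. SMARCA4 held 79.2% ± 3.56 of the BAF ATPase pair from summed counts and 53.6% from single transcripts. SMARCC1 held 62.0% ± 3.52 of the SMARCC pair, and 81.8% from single transcripts. In the SMARCD set, SMARCD1 held 42.5%, SMARCD2 31.5% and SMARCD3, the heart and muscle paralog, 26.0%, while single transcripts gave 36.2%, 49.8% and 14.0%, so the order of SMARCD1 and SMARCD2 turns round. ARID1A, the subunit that defines canonical BAF with ARID1B, held 61.7% ± 3.11 and was steady at 62.3% from single transcripts.

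BCL7B held 55.9% of the BCL7 set, BCL7A 31.4% and BCL7C 12.7%, and single transcripts gave 40.9%, 32.8% and 26.2% in the same order. Without a length correction BCL7A came first at 59.4%, because its longest transcript is 6247 bases against 1975 for BCL7B. The ISWI ATPases were close, with SMARCA1 at 52.8% ± 1.44 and SMARCA5 at 47.2% ± 1.44 per kb, although SMARCA5 had 63.3% of the uncorrected counts. CHD1 held 66.9% against CHD2, with 55.7% by mean transcript length, 58.3% of uncorrected counts and 70.8% from single transcripts. CHD4 held 68.4% against CHD3 (86.1% from single transcripts). CHD8 held 74.9% against CHD7 (60.9% from single transcripts), with CHD9 left out for want of a length. In uncorrected counts, which include CHD9, CHD8 held 50.1%. SRCAP, which loads H2A.Z, held 43.8% ± 2.45 of the INO80-family ATPase set, EP400 31.4% ± 2.32 and INO80 24.8% ± 2.36.

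**Figure D2:**
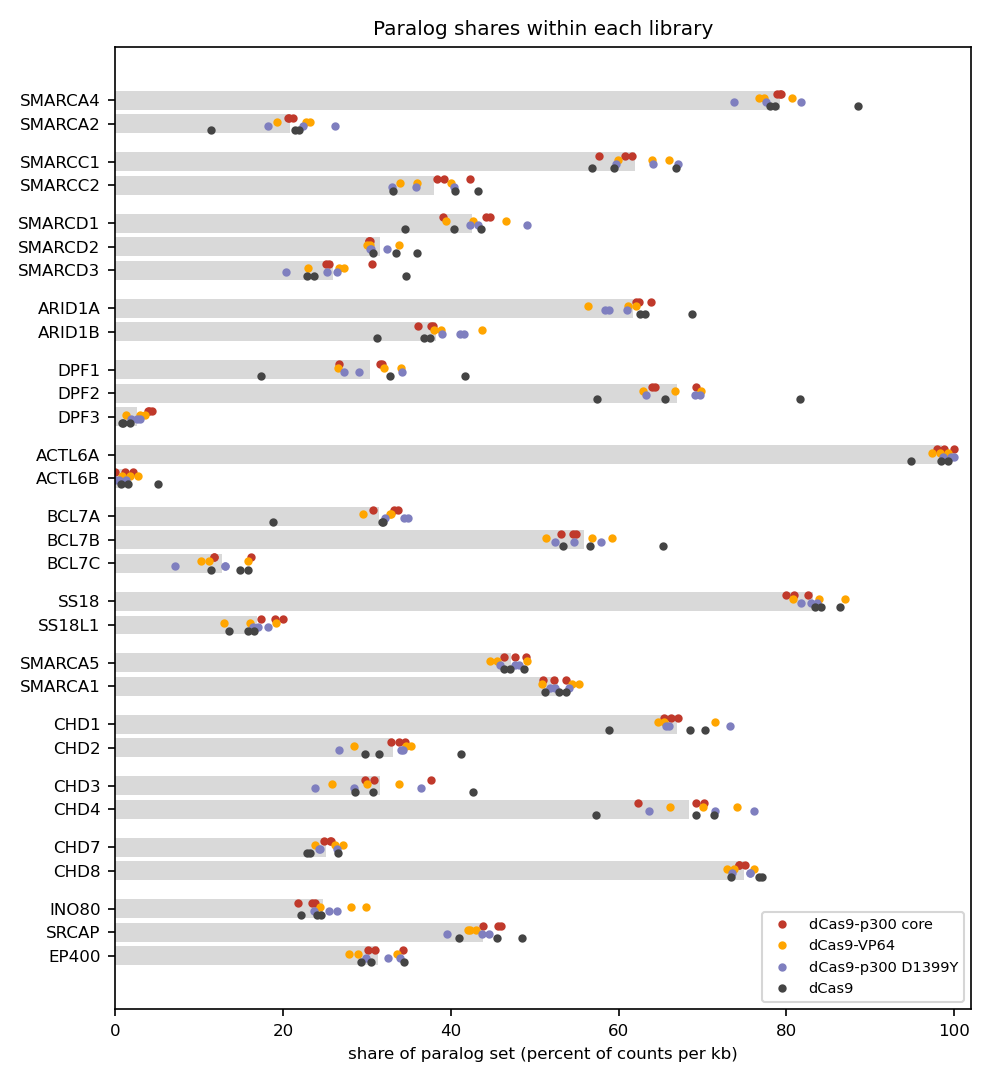
Share of each paralog set, as percent of summed counts per kb within a library. Grey bars are means over 12 libraries, starting at 0, and points are libraries coloured by group. ACTL6A, SS18, SMARCA4 and CHD8 hold over 70% of their sets, and DPF3 and ACTL6B hold under 6% in every library. The CHD8 share is against CHD7 alone, since CHD9 has no matched length.

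Between the means of the 4 groups these shares moved little, apart from the small shares of DPF3 and ACTL6B. ACTL6B averaged 0.591% ± 0.688 in D1399Y and 2.46% ± 2.33 in dCas9 libraries, from few counts. Replicate 3 of dCas9 was the extreme library in several sets. There SMARCA4 at 88.5% and DPF1 at 41.7% of the DPF set were the highest of the libraries, and BCL7A at 18.8% the lowest. In other sets that library lay within the rest, as for SMARCA5 at 48.7%. Long transcripts were also low in that library, and their part in its shares was not tested. Of 25 shares compared by an exact permutation test over all 15400 assignments of the libraries to groups, 2 had an unadjusted p under 0.05 and 0 passed after adjustment over the 25 shares. Both were DPF3. Within the DPF set DPF3 held 4.06%, 4.40% and 3.90% in the core libraries, 3.62%, 2.99% and 1.31% in the VP64 libraries, 3.02%, 2.65% and 1.92% in the D1399Y libraries and 0.896%, 1.75% and 0.847% in the dCas9 libraries.

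The 3 core libraries were above the other 9 and did not overlap them. The group means were 4.12% ± 0.257 in core, 2.64% ± 1.19 in VP64, 2.53% ± 0.561 in D1399Y and 1.17% ± 0.510 in dCas9 libraries (SD, n = 3 each; exact permutation p = 0.0127, adjusted p = 0.159). With PHF10 in the set the share was 2.10% ± 0.200 in core, 1.25% ± 0.493 in VP64, 1.14% ± 0.288 in D1399Y and 0.583% ± 0.227 in dCas9 libraries (exact permutation p = 0.00539, adjusted p = 0.135). One library decided the call: without VP64 replicate 3 the permutation test gave adjusted p = 0.00649 for both shares. Under the other 15 alternatives the adjusted p lay between 0.0706 and 0.437. Both shares have the same DPF3 counts as numerator, so they are not separate evidence. DPF3 had also been named in an earlier account of these libraries, so its shares give no independent support. ARID1A held 62.8% ± 0.968 of its pair in core, 59.9% ± 3.08 in VP64, 59.4% ± 1.42 in D1399Y and 64.8% ± 3.42 in dCas9 libraries, and its exact permutation p was 0.0502 (adjusted p = 0.316).

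Among the tested members, DPF3 had the largest fold change between groups. Its levels were 8.21, 6.95 and 6.58 CPM in the core libraries, 5.21, 5.09 and 2.29 CPM in the VP64 libraries, 4.89, 3.18 and 2.93 CPM in the D1399Y libraries and 1.42, 2.63 and 1.85 CPM in the dCas9 libraries. The counts behind them were 31, 36 and 25 in core, 21, 20 and 9 in VP64, 18, 11 and 11 in D1399Y and 5, 11 and 5 in dCas9 libraries. Every core library lay above the other 9, a pattern shown by 0.910% of all genes tested, and the VP64 libraries overlapped both the D1399Y and the dCas9 libraries. The D1399Y libraries all lay above the dCas9 libraries, as did 3.44% of all genes.

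DPF3 was 3.57-fold higher in core than in dCas9 libraries (95% interval 2.08 to 6.13; log2 1.84 ± 0.36 standard error; unadjusted p = 0.000186), and ranked 5 of all genes by p. Adjusted over all genes, it did not pass (edgeR, adjusted p = 0.479). DPF3 had been named in an earlier account of these libraries, so this is no independent support. Its log2 fold change was 1.06 ± 0.39 in VP64 against dCas9 (adjusted p = 0.929, edgeR) and 0.86 ± 0.40 in D1399Y against dCas9 (adjusted p = 0.633, edgeR). It was 0.97 ± 0.33 in core against D1399Y and 0.78 ± 0.31 in core against VP64 (adjusted p = 1.00 for each, edgeR), and 0.19 ± 0.35 in VP64 against D1399Y. Single libraries moved the last 2 values: without VP64 replicate 3 they were 0.49 in core against VP64 and 0.49 in VP64 against D1399Y, and without VP64 replicate 1 the value in VP64 against D1399Y was 0.008. Leaving out any other VP64 or D1399Y library gave 0.04 to 0.46 in VP64 against D1399Y.

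Comparisons with the same control share its libraries, so these values are not independent of each other. Without dCas9 replicate 3, DPF3 was at log2 1.79 ± 0.41 in core against dCas9. Over all 22 alternatives it ranged from 1.62 to 2.15, above 0 in 22 of 22 and past the threshold in 0, with adjusted p from 0.201 to 1.00 by edgeR, limma-voom or DESeq2. Pool CV42 holds replicate 3 of both p300 groups alone, and both DPF3 values from it, 6.58 CPM in core and 2.93 CPM in D1399Y, were the lowest of their groups.

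DPF1 and DPF2 did not show that order. DPF1 had 30.5, 28.2 and 30.3 CPM in core, 21.6, 32.8 and 31.6 CPM in VP64, 25.0, 23.1 and 25.0 CPM in D1399Y and 15.6, 27.7 and 51.5 CPM in dCas9 libraries. The dCas9 libraries held both the lowest and the highest value, so every group overlapped dCas9. The DPF1 core libraries all lay above the D1399Y libraries, as for DPF3, at log2 0.28 ± 0.31 without passing the test. DPF2 had 96.1, 69.4 and 74.5 CPM in core, 69.0, 73.5 and 79.9 CPM in VP64, 77.4, 52.0 and 72.4 CPM in D1399Y and 88.7, 67.4 and 86.3 CPM in dCas9 libraries, and all groups overlapped. PHF10, the PBAF counterpart, averaged 70.7 ± 5.82 CPM in core, 73.0 ± 9.60 in VP64, 74.3 ± 3.29 in D1399Y and 70.7 ± 7.34 in dCas9 libraries (SD, n = 3 each).

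**Figure D3:**
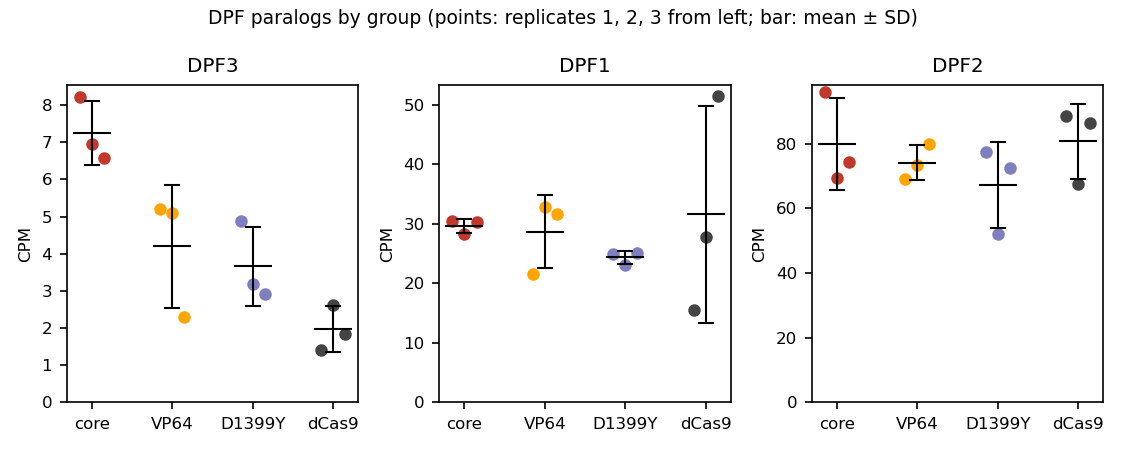
Level of DPF3, DPF1 and DPF2 in CPM (axes from 0) in the 4 groups, with replicates 1 to 3 as points from left to right and bars for mean ± SD. The DPF3 core libraries lie between 6.58 and 8.21 CPM, above all others. All DPF2 groups overlap. Each DPF1 group overlaps dCas9, but the DPF1 core libraries lie above the D1399Y libraries.

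Across the set, 0 of 35 tested members passed the adjusted threshold in any of the 6 comparisons by edgeR, nor under DESeq2, limma-voom or any other alternative. Genes that passed made up 0.00684% of all genes (1 of 14616) in each of core against dCas9, core against D1399Y and core against VP64. In the other 3 comparisons they made up 0%. The gene that passed was IL1RN each time. In VP64 against dCas9 IL1RN did not pass, at log2 1.90 ± 0.26 (adjusted p = 0.0748, edgeR). Without dCas9 replicate 3 it was at 2.15 ± 0.27 there (adjusted p = 0.00795, edgeR). A gene that differs can therefore miss this threshold, so 0 members passing does not show that the members were unchanged. At an unadjusted p under 0.05, core against dCas9 held 1 member, DPF3, against 3.11% of all genes, and VP64 against dCas9 held 2, DPF3 and INO80, against 3.07%. D1399Y against dCas9 held 1, ARID2, against 5.89% of all genes. Core against D1399Y and core against VP64 each held DPF3 alone, against 1.86% and 2.11% of all genes, and VP64 against D1399Y held 0, against 0.657%. These shares are near the background. With the replicate number as a block, D1399Y against dCas9 held 2 members, ARID2 and DPF3, against 10.7% of all genes, and core against VP64 held DPF3 alone, against 3.41%. Without dCas9 replicate 3, core against dCas9 held DPF3 and SMARCD3, both higher in core, against 2.89% of all genes. Without it VP64 against dCas9 held DPF3, higher in VP64, and CHD8, lower at log2 −0.28 ± 0.11, against 4.21%. D1399Y against dCas9 then held 0 against 2.53%. A test of any difference among the 4 groups gave 0 members past the threshold, against 0.0205% of all genes, with DPF3 first among them and at rank 12 of all genes (adjusted p = 0.985, edgeR).

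The members leaned upward against dCas9, and the lean shrank or turned without 1 library. Their median log2 fold change was 0.12 in core, 0.08 in VP64 and 0.11 in D1399Y against dCas9, with 25, 24 and 25 of 35 above 0. Over all genes the medians were 0.02, 0.005 and 0.002, and 52.5%, 50.9% and 50.2% of genes were above 0. Without dCas9 replicate 3 the members' medians were 0.03, −0.04 and 0.03, with 23, 15 and 20 above 0. Without dCas9 replicate 2, which leaves replicate 3 in place, they were 0.21, 0.16 and 0.19, and 6, 5 and 9 members had an unadjusted p under 0.05, against 13.9%, 12.8% and 20.7% of all genes. Between the other groups the medians were 0.03 in core against D1399Y, 0.09 in core against VP64 and −0.04 in VP64 against D1399Y. There 20, 25 and 11 of 35 members were above 0, against 51.1%, 49.5% and 48.8% of all genes.

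Transcript length moved with that library. In dCas9 replicate 3 the 17 members with transcripts longer than 5823 bases had a median log2 ratio to the 12-library mean of −0.55, and the 17 shorter members 0.04. Over all genes, 2478 longer ones had a median of −0.71 and 11303 shorter ones 0.13. In the other 11 libraries the longer members lay between −0.02 and 0.15. CHD9 had 44.4 CPM in that library and 142 and 161 CPM in the other 2 dCas9 libraries, and PBRM1 had 107 CPM there and 245 and 258 CPM in those. D1399Y replicate 2 leaned the other way. Its longer genes overall had a median of 0.25 and its shorter genes −0.07. Its longer members were at −0.02 and its shorter members at −0.22. How far length accounts for the lean of the members, or for values that move without D1399Y replicate 2, was not tested.

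**Figure D4:**
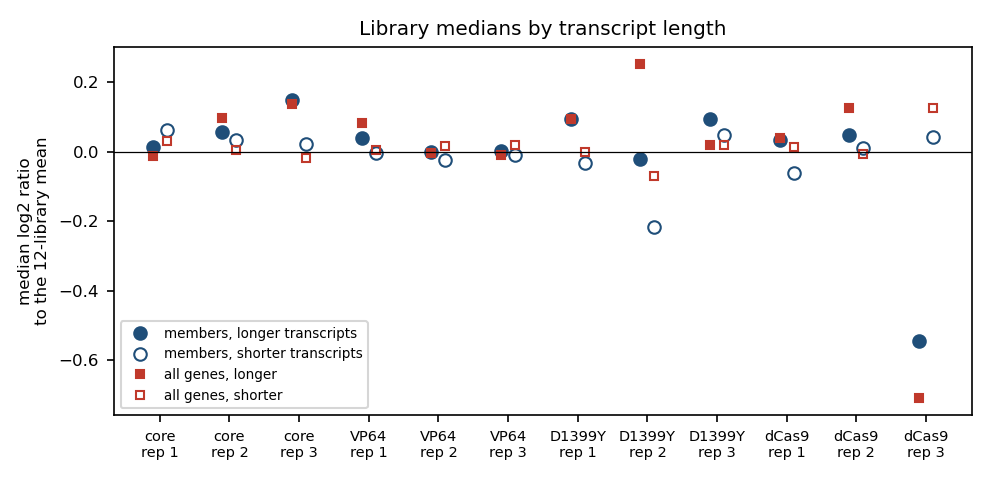
Median log2 ratio to the 12-library mean, log2(CPM + 0.5), in each library for the longer and shorter members (circles) and for longer and shorter genes overall (squares). The longer members lie at −0.55 in dCas9 replicate 3 and between −0.02 and 0.15 in the other libraries. In D1399Y replicate 2 the longer genes overall lie at 0.25 and the shorter members at −0.22.

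The lean differed between families, with no test of the difference. All 3 INO80-family ATPases and all 3 PBAF members had positive log2 fold changes in the 3 comparisons with dCas9, and none passed the test. Family medians were 0.30, 0.11 and 0.30 for the INO80 family and 0.21, 0.18 and 0.33 for PBAF in core, VP64 and D1399Y against dCas9. The CHD family had 0.15, 0.15 and 0.21, the 2 ISWI members 0.009, 0.12 and 0.19, and the BAF members 0.03, 0.02 and 0.06. Without dCas9 replicate 3 the family medians were 0.10, −0.03 and 0.16 for the INO80 family, −0.06, −0.01 and 0.03 for PBAF and −0.003, −0.09 and −0.004 for the CHD family. They were −0.08, 0.03 and 0.10 for the ISWI members and 0.05, −0.05 and 0.01 for the BAF members. Of the 20 BAF members, 16 were above 0 in core against dCas9 without that library, and 12 with it.

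INO80, which slides nucleosomes and acts on H2A.Z, had 49.3, 55.4 and 58.9 CPM in core, 62.3, 59.3 and 52.9 CPM in VP64, 59.7, 53.8 and 58.3 CPM in D1399Y and 46.5, 54.8 and 33.3 CPM in dCas9 libraries. The lowest value was dCas9 replicate 3, and VP64 and dCas9 libraries overlapped. Its log2 fold change in VP64 against dCas9 was 0.36 ± 0.17, and 0.20 ± 0.14 without that library (adjusted p = 0.929 and 0.997, edgeR).

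EP400, the ATPase of the TIP60 acetyltransferase complex, had 126, 135 and 180 CPM in core, 124, 107 and 141 CPM in VP64, 136, 134 and 155 CPM in D1399Y and 119, 134 and 90.8 CPM in dCas9 libraries. Core and dCas9 libraries overlapped. Its log2 fold change was 0.35 ± 0.18 in core against dCas9, with 0.21 ± 0.15 without dCas9 replicate 3 and 0.18 without core replicate 3. It was 0.24 ± 0.18 in core against VP64, where the value was 0.07 without core replicate 3 or with the CV41 libraries alone, and 0.15 without VP64 replicate 2. It was −0.19 ± 0.18 in VP64 against D1399Y, with −0.09 without VP64 replicate 2 and −0.30 without VP64 replicate 3.

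ARID2, the subunit that sets PBAF apart from canonical BAF, had 92.7, 111 and 132 CPM in core, 119, 125 and 120 CPM in VP64, 116, 173 and 121 CPM in D1399Y and 89.5, 129 and 64.8 CPM in dCas9 libraries. D1399Y replicate 2 was the highest and dCas9 replicate 3 the lowest, and their groups overlapped. Its log2 fold change in D1399Y against dCas9 was 0.52 ± 0.23 (adjusted p = 0.633, edgeR). That value was 0.32 ± 0.19 without dCas9 replicate 3, 0.31 without D1399Y replicate 2 and 0.82 without dCas9 replicate 2.

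SMARCC2, a scaffold paired with SMARCC1, had 150, 163 and 152 CPM in core, 126, 122 and 151 CPM in VP64, 135, 124 and 157 CPM in D1399Y and 124, 153 and 113 CPM in dCas9 libraries. Core overlapped VP64 and dCas9 by a single library each. Its log2 fold change was 0.25 ± 0.15 in core against dCas9, 0.16 ± 0.13 without dCas9 replicate 3 and 0.38 without dCas9 replicate 2. It was 0.22 ± 0.15 in core against VP64.

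SMARCB1, the core subunit lost in rhabdoid tumours, and BCL7B, an accessory subunit, ran the other way. SMARCB1 had 154, 147 and 138 CPM in core, 132, 145 and 143 CPM in VP64, 135, 119 and 155 CPM in D1399Y and 156, 142 and 206 CPM in dCas9 libraries. BCL7B had 63.3, 60.5 and 59.7 CPM in core, 50.1, 70.0 and 57.8 CPM in VP64, 54.3, 52.9 and 60.7 CPM in D1399Y and 58.9, 62.9 and 98.5 CPM in dCas9 libraries. For both genes dCas9 replicate 3 was the highest of the 12. The log2 fold change of SMARCB1 in VP64 against dCas9 was −0.26 ± 0.15, and −0.09 ± 0.12 without that library. The log2 fold change of BCL7B in D1399Y against dCas9 was −0.38 ± 0.19, and −0.12 ± 0.15 without it.

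The ISWI ATPases were lower in core than in D1399Y libraries without passing the test. SMARCA5 had 261, 263 and 271 CPM in core, 285, 277 and 276 CPM in VP64, 283, 330 and 284 CPM in D1399Y and 265, 285 and 233 CPM in dCas9 libraries. SMARCA1 had 148, 158 and 146 CPM in core, 176, 177 and 148 CPM in VP64, 173, 184 and 162 CPM in D1399Y and 154, 171 and 127 CPM in dCas9 libraries. For both genes the core and D1399Y libraries did not overlap, which 4.48% of all genes showed in that direction. The log2 fold change in core against D1399Y was −0.17 ± 0.12 for SMARCA5 and −0.20 ± 0.13 for SMARCA1 (unadjusted p = 0.157 and 0.165; adjusted p = 1.00 for each, edgeR). Without D1399Y replicate 2 the SMARCA5 value was −0.10. In VP64 against D1399Y, SMARCA5 was at −0.10 ± 0.12, and at −0.02 without D1399Y replicate 2.

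SS18L1, the neuronal paralog of SS18, had 33.9, 43.9 and 43.2 CPM in core, 37.0, 31.8 and 41.5 CPM in VP64, 35.3, 42.5 and 44.2 CPM in D1399Y and 34.6, 37.5 and 26.3 CPM in dCas9 libraries. All groups overlapped, and its log2 fold change in VP64 against D1399Y was −0.15 ± 0.18. Leaving out 1 library moved that value to between −0.05, without VP64 replicate 2, and −0.24, without VP64 replicate 3. ACTL6B, the other neuronal subunit, had 5, 4 and 0 counts in core, 5, 2 and 7 in VP64, 1, 0 and 3 in D1399Y and 3, 2 and 9 in dCas9 libraries, too few for a comparison between groups.

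**Figure D5:**
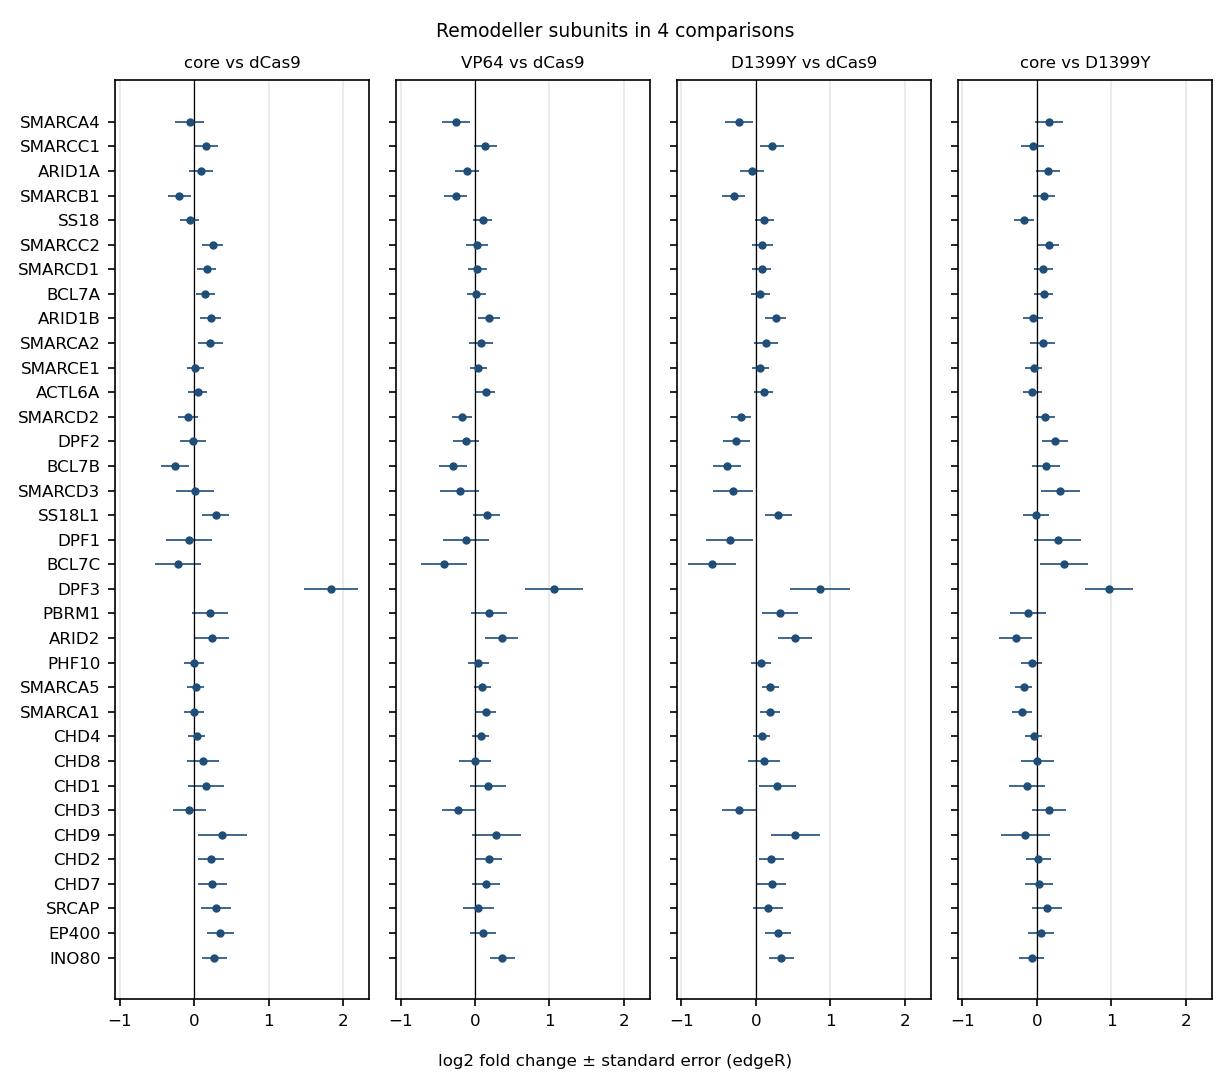
Log2 fold change ± standard error (edgeR) of the 35 tested members in 4 comparisons, ordered by family and level. DPF3 lies at 1.84, 1.06, 0.86 and 0.97 from left to right, and the other members lie between −0.59 and 0.53.

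A further 68 remodeller subunits were listed, of which 66 were in the files and 65 were tested. None passed the adjusted test in any comparison. At an unadjusted p under 0.05 there was 1 in core against dCas9, 3 in VP64 against dCas9 and 5 in D1399Y against dCas9, and 0 in each of the other 3 comparisons. These are 1.54%, 4.62% and 7.69% of the 65, against 3.11%, 3.07% and 5.89% of all genes. Without dCas9 replicate 3 the counts were 0, 4 and 0. Their median log2 fold change was −0.04 in core, −0.01 in VP64 and −0.02 in D1399Y against dCas9, and −0.02, 0.001 and 0.0008 without dCas9 replicate 3. Of the 11 tested ATPases among them, 10 were above 0 in each comparison with dCas9, with medians of 0.22, 0.27 and 0.41. Without dCas9 replicate 3 these were 6, 6 and 9 of 11, with medians of 0.02, 0.04 and 0.13.

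The genes of smallest p among them were TTF2, a helicase-like ATPase that ends transcription, and MRGBP, of the TIP60 complex, in core against dCas9, with log2 fold changes of 0.37 ± 0.17 and −0.29 ± 0.15 (0.18 and −0.15 without dCas9 replicate 3). In VP64 against dCas9 they were ING3 at 0.39 ± 0.16 and EPC2 at 0.58 ± 0.25, both also of the TIP60 complex (0.43 and 0.33 without that library). In D1399Y against dCas9 they were TTF2 at 0.43 ± 0.17 and VPS72, an H2A.Z chaperone, at −0.45 ± 0.19 (0.24 and −0.30 without it). In core against D1399Y they were RBBP4, a histone-binding subunit of NuRD, at −0.20 ± 0.12 and YY1, a subunit of INO80, at −0.18 ± 0.13. In core against VP64 they were ING3 at −0.22 ± 0.16 and UCHL5 at −0.17 ± 0.13, and in VP64 against D1399Y they were BRD9, of non-canonical BAF, at 0.25 ± 0.17 and INO80D at −0.45 ± 0.30. All of these had an adjusted p of 0.633 or more by edgeR.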

How the data were processed

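The authors deposited 1 table of raw counts per library, in whole reads for 40709 RefSeq transcripts. Per the submitters' processing notes, DESeq2 1.6.2, R 3.1.2, SAMtools, Bowtie2 and CASAVA were used with the hg19 build. The role of each tool, the strand setting and the rule for reads common to several isoforms were not given in the sources used.

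Transcripts were named through the RefSeq table (39324) and GENCODE (526), 859 stayed unnamed, and counts were summed per gene. Those tables belong to GRCh38, so coordinates are given only for RefSeq windows of that build. Transcript lengths come from GENCODE and may differ from the versions counted. CPM are counts over TMM-scaled library sizes.

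Differences were tested with edgeR 4.0.16 (TMM, filterByExpr with a minimum count of 10 and total of 15, quasi-likelihood, two-sided) in 1 fit of group means over 12 libraries, adjusted by Benjamini-Hochberg over 14616 genes, threshold 0.05. Errors are standard errors of the log2 fold change. Shares were tested by exact permutation. The test was checked on simulated data with 200 changed genes. Unchanged genes had the same mean in every simulated library, so none stood apart as dCas9 replicate 3 does. Recovery was summarised by fold alone, so the check gives no power at counts as low as those of DPF3. Members, lists and tests were chosen with earlier results of these data known. Per-library values are given for the DPF genes and the 3 members of smallest p in each comparison, and 2 other remodeller subunits are named per comparison.

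Replicate numbers were taken as pairs where all 3 same-numbered correlations of deviations from the group means were above 0.1. This held for core and VP64 (0.25 to 0.36) and for D1399Y and dCas9 (0.237 to 0.497), and rests on the data alone. Pairs of other numbers reached 0.24, so a correlation above 0.1 does not by itself mark a pair. Values for core against VP64 and for D1399Y against dCas9 are from the fit without a block unless the block is named. With the block, DPF3 in D1399Y against dCas9 was at log2 0.88 ± 0.37 and ARID2 at 0.53 ± 0.20. Adjusted p was 0.448 for each by edgeR. In core against VP64 the block moved DPF3 from log2 0.78 ± 0.31 to 0.79 ± 0.27, and DPF3 did not pass the adjusted threshold.

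Nothing in the labels says that the triplicates were separate cultures, and p-values therefore reflect only how these libraries vary, which may be technical. The labels name no molecular identifiers, so reads may repeat a molecule. By their labels 10 libraries belong to pool CV41, and replicate 3 of each p300 group belongs to pool CV42. Alternatives were RLE factors, DESeq2 1.42.0, limma-voom (limma 3.58.1), a filter of 1 CPM in 6 libraries, no filter, a replicate block, the CV41 libraries alone, the pool as a covariate, the compared groups alone, a single transcript per gene and leaving out each library. Software was R 4.3.3, Python 3.11.15, pandas 2.3.3 and matplotlib 3.10.9.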

Additional observations from a re-analysis of the deposited data

How the results depend on the processing

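No member passed the threshold under any of the alternatives run, and the DPF3 log2 fold change kept its sign in all 6 comparisons. The counts that moved were those of all genes. In core against dCas9, where 1 gene passed, RLE factors and limma-voom gave 2 each, DESeq2 gave 4, and no filter, the stricter filter and single transcripts gave 3 each. In VP64 against dCas9, where 0 passed, DESeq2, no filter and the replicate block gave 1 each. In D1399Y against dCas9, where 0 passed, RLE factors, DESeq2, limma-voom, no filter, the stricter filter and single transcripts gave 1 each. In core against D1399Y, where 1 passed, DESeq2 and the compared groups alone gave 4 each. In core against VP64, where 1 passed, DESeq2 gave 5, no filter 3, the compared groups alone 6, and the CV41 libraries alone and the pool covariate 0. In VP64 against D1399Y, where 0 passed, DESeq2, no filter and the compared groups alone gave 2 each. For any difference among the 4 groups, where 3 passed, DESeq2 gave 9, and the replicate block, the CV41 libraries alone and the pool covariate 1 each. Leaving out 1 library gave 1 to 2 genes in core against dCas9, 0 to 1 in VP64 against dCas9, 0 to 1 in D1399Y against dCas9, 1 to 5 in core against D1399Y, 0 to 5 in core against VP64, 0 to 2 in VP64 against D1399Y and 1 to 6 for any difference, and 0 to 2 DPF3 shares. The highest count came without dCas9 replicate 3 in each of these comparisons, and was also reached without dCas9 replicate 2 in core and in D1399Y against dCas9. Both DPF3 shares, which rest on the same DPF3 counts, passed only without VP64 replicate 3. The cause of these moves was not tested.

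In the 4 comparisons where the replicate numbers were not taken as pairs, at least 1 same-numbered correlation lay below 0.1, and the lowest was −0.18. Of 36 matches of a library to another group, 27 had the best partner under its own number, and 5 of 12 libraries matched their number in every other group, a hint from the data and not from the design. The replicate block left 0 members past the adjusted threshold in each comparison. Genes at an unadjusted p under 0.05 were more under the block: 757 against 454 without it in core against dCas9, 953 against 448 in VP64 against dCas9, 1569 against 861 in D1399Y against dCas9, 479 against 272 in core against D1399Y, 499 against 309 in core against VP64 and 161 against 96 in VP64 against D1399Y. Depth limits DPF3 and ACTL6B most, with 5 to 36 and 0 to 9 counts per library.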
